A study of Mus musculus with 6 samples.

Results

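The 10 genes described here encode the enzymes that make serine from a glycolytic intermediate and pass its carbon into the folate cycle: *Phgdh*, *Psat1* and *Psph* of the serine biosynthesis pathway (SBP), and *Shmt1*, *Shmt2*, *Mthfd1*, *Mthfd2*, *Mthfd1l*, *Mthfd2l* and *Gldc* of folate one-carbon metabolism. They were taken by name, with no threshold on a measured value, from the 21938 protein-coding genes of the GENCODE mouse annotation on mm10. For each gene, the bases covered by H3K9me3 peaks were counted in 3 windows, namely 3 kb to either side of the annotated start (promoter window), the gene from its first to its last annotated base (gene body), and 100 kb beyond each end (flanks). The assay was ChIP-seq, the sequencing of DNA immunoprecipitated with an antibody, here to histone H3 trimethylated at lysine 9 (H3K9me3), in neural stem cells (NSCs) cultured from the cerebral cortex of mouse embryos. The cells had been infected with lentivirus carrying a hairpin against PHF8 (shPHF8) or, as the control, a scrambled shRNA (shCTR), and selected for the vector, so both groups carried a virus and an shRNA. There were 2 ChIP libraries per condition, and the labels do not say whether they came from separate cultures, so the values below measure the spread between libraries, which may be technical. The cell type and the level of PHF8 cannot be checked from lists of peak positions.

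H3K9me3 is the mark of constitutive heterochromatin. It is laid down by SUV39H and SETDB1 methyltransferases, bound by HP1 proteins and found over repeats, silenced gene clusters and the bodies of some transcribed genes. PHF8 is a histone demethylase that removes lower methylation states from this lysine and from a lysine of histone H4, and its PHD finger binds the trimethylated lysine of active promoters. The serine pathway branches from glycolysis: PHGDH oxidises phosphoglycerate, PSAT1 aminates the product and PSPH removes the phosphate. SHMT enzymes then split serine into glycine and a methylene group on tetrahydrofolate, which the MTHFD enzymes carry to formate in mitochondria and back to purine and thymidylate synthesis in the cytosol, and dividing progenitors draw on both routes.

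The 4 peak lists differed before any gene was examined. Values are given in the order shCTR replicate 1, shCTR replicate 2, shPHF8 replicate 1, shPHF8 replicate 2. Lists numbered 53307, 54108, 44316 and 55555 peaks with median widths of 2400, 2400, 4200 and 2800 bp, and covered 157, 160, 219 and 197 Mb. The lists carry no height, score or read count. Read totals of the libraries are stated by the study and were not used here, and they cannot be derived from the lists. By those totals, shPHF8 replicate 2 had the fewest reads of the 4 libraries. A region without a peak is one that was not called, and the mark may be present there below the threshold. The libraries are of bulk cells, so a mark in fewer cells and a weaker mark in all cells cannot be told apart. Because both shPHF8 lists cover more of the genome, counts of genes or regions that separate the conditions are set beside the share of all protein-coding genes, or of all regions, that met the same criterion. With 2 libraries against 2, the exact two-sided permutation test cannot give a p below 0.333, so no difference between conditions could pass the threshold of 0.05.

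No H3K9me3 peak was called over the start of the reference transcript (the principal transcript, used here to number exons) of any of the 10 genes in any library. Within 1 kb of that start, covered bases were 0 for 10 of 10 genes in all 4 libraries. The share of all protein-coding genes without a peak that close is not given here, so this is not read as a trait of the members. Within 3 kb of the reference start, 5 of the 10 had a peak in at least 1 library, beside 27.8% of all protein-coding genes. Around the annotated start, which is the outermost start of any transcript, 2 genes had covered bases within 1 kb, with 737, 0, 1337 and 0 at *Psat1* and 0, 118, 0 and 0 at *Shmt1*, and a peak of shPHF8 replicate 1 ran across the annotated *Psat1* start. RefSeq promoter sequences running from 250 bases before to 50 bases after a start (GRCm38.p6, the assembly of mm10) were matched for 10 of 10 genes and gave 11 sequences, 2 of them for *Psat1*, and none was overlapped by a peak. The share of all RefSeq promoters without a peak is not given here. The 11 sequences held between 8 and 30 CG dinucleotides, against a median of 7 over 32851 RefSeq promoters. The promoters of the 3 SBP genes are printed in full, since they are the sites at which PHF8 is of interest in this study, on the minus strand with each CG in capitals. They lie at chr3:98339920-98340219 for *Phgdh*, chr19:15925010-15925309 for the *Psat1* reference transcript and chr5:129787204-129787503 for *Psph*.
Phgdh: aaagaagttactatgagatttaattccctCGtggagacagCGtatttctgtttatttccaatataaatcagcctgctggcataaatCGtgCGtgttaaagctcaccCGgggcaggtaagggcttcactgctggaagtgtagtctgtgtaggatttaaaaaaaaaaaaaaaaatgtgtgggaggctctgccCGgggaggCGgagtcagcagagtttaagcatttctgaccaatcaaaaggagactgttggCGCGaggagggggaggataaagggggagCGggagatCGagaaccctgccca
Psat1: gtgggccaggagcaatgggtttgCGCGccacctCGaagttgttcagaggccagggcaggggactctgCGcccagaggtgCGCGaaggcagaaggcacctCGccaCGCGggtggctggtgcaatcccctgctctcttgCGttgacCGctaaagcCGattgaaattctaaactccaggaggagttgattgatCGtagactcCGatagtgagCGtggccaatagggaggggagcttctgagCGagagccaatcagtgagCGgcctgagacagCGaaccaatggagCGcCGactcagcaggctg
Psph: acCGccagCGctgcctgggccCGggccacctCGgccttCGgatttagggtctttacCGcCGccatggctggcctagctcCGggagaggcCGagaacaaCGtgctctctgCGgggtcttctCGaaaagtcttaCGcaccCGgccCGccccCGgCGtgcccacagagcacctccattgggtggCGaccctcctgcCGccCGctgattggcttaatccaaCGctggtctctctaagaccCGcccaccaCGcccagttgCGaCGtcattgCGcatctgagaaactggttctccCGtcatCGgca
The *Phgdh* sequence held 11 CG, the *Psat1* sequence 20 and the *Psph* sequence 28, and 41.4%, 26.5% and 14.2% of the 32851 promoters held as many or more.

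*Phgdh* (chr3:98313170-98339990, minus strand), which encodes the dehydrogenase that commits carbon to serine, had no peak in its promoter window or gene body in any of the 4 libraries. Its flanks held 14600 and 17200 covered bases with shCTR and 33200 and 37400 with shPHF8. Both PHF8-depleted libraries lay above both controls, with means of 15900 ± 1838 and 35300 ± 2969.9 bases (SD, n = 2) and a ratio of 2.22 (exact permutation p = 0.333). The extra bases lay on both sides of the gene, since the ratio was 2.35 in the upstream flank and 2.15 in the downstream flank. Overlapping or touching peaks from any of the 4 libraries were joined into merged regions, and a merged region is called gained here when both shPHF8 libraries and neither shCTR library had a peak in it, and lost in the opposite case. Of the 12 merged regions in the *Phgdh* flanks, 4 were gained and 0 were lost, beside 4.28% gained and 5.03% lost among all 71107 merged regions. The gained regions were chr3:98216401-98219400 and chr3:98268401-98270800 downstream, chr3:98357801-98361400 upstream, and chr3:98435201-98437400 inside the zinc finger gene *Zfp697*. The one nearest to the gene, 17811 bp upstream of the start, held 3600 and 2200 covered bases in shPHF8 replicates 1 and 2.

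The region closest to *Phgdh* upstream was shared by the conditions. A region at chr3:98344601-98350000, which begins 4611 bp upstream of the start, held 2200, 3600, 4800 and 4400 covered bases in the 4 libraries. Each shPHF8 value there exceeded each shCTR value. The peak nearest to the *Phgdh* gene itself was 4170, 3970, 5211 and 4170 bp away in the same order of libraries, so the distance of the mark from the gene did not separate the conditions.

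*Psat1* (minus strand) encodes the aminotransferase of the pathway, and its annotated span, chr19:15904678-15947337, is set by 1 short transcript that begins 22278 bp upstream of the 9-exon reference transcript. No exon or intron of the reference transcript carried a peak in any library. All of the 11400, 13200, 9137 and 8200 covered bases in the annotated gene body lay upstream of the reference start at position 15925059, and both shPHF8 libraries were below both shCTR libraries (ratio 0.705, exact permutation p = 0.333). The difference lay in the region chr19:15926601-15938400, where 8800 and 8600 bases were covered with shCTR and 4800 and 5200 with shPHF8. Peaks in this region began 1542 and 2142 bp upstream of the reference start in shCTR replicates 1 and 2, and the nearest peak was 8542 and 8142 bp away in shPHF8 replicates 1 and 2. Within 3 kb of the reference start, covered bases were 1459 and 859 with shCTR and 0 and 0 with shPHF8. Around the annotated start the values were 4001, 1601, 5001 and 3001, the conditions overlapped, and the mean was higher in shPHF8, so the direction at *Psat1* depended on which start was taken.

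The wider surroundings of *Psat1* went the other way. Flank coverage was 14537 and 20860 bases with shCTR and 40863 and 38123 with shPHF8. Both shPHF8 libraries were above both controls, with means of 17699 ± 4471 and 39493 ± 1937 bases (SD, n = 2; ratio 2.23, exact permutation p = 0.333). Among the 20305 protein-coding genes with a peak in their flanks in any library, 2.82% had a difference as high as that of *Psat1* and 3.98% as high as that of *Phgdh*. A gained region lay downstream at chr19:15881401-15888800, 15878 bp past the end of the gene, with 7400 and 2800 covered bases in the shPHF8 libraries. The other wide addition was upstream, at chr19:16001401-16009800 over the non-coding gene *C130060C02Rik*, which held 0, 4200, 8400 and 5600 covered bases and so was present in 1 control library as well.

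*Psph* (chr5:129765558-129787449, minus strand), encoding the phosphatase that releases serine, had the start farthest from a peak among the 10 genes in the shCTR libraries, where the nearest peak was 61352 bp away in both. In shPHF8 replicates 1 and 2 it was 48849 and 51249 bp away. Promoter window and gene body held 0 covered bases in all 4 libraries. Flank coverage was 27200, 24800, 34600 and 28000 bases, which placed shPHF8 above shCTR by a narrow margin (ratio 1.20, exact permutation p = 0.333), and 37.4% of genes had a difference as high. The flanks gained chr5:129732601-129738600 over *Nipsnap2*, with 6000 and 3200 covered bases in shPHF8 libraries, and lost chr5:129718801-129721200 over the mitochondrial ribosomal gene *Mrps17* (2400 and 1400 in shCTR) and chr5:129848801-129850000 over *Sumf2* (1200 and 800 in shCTR).

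**Figure D1:**
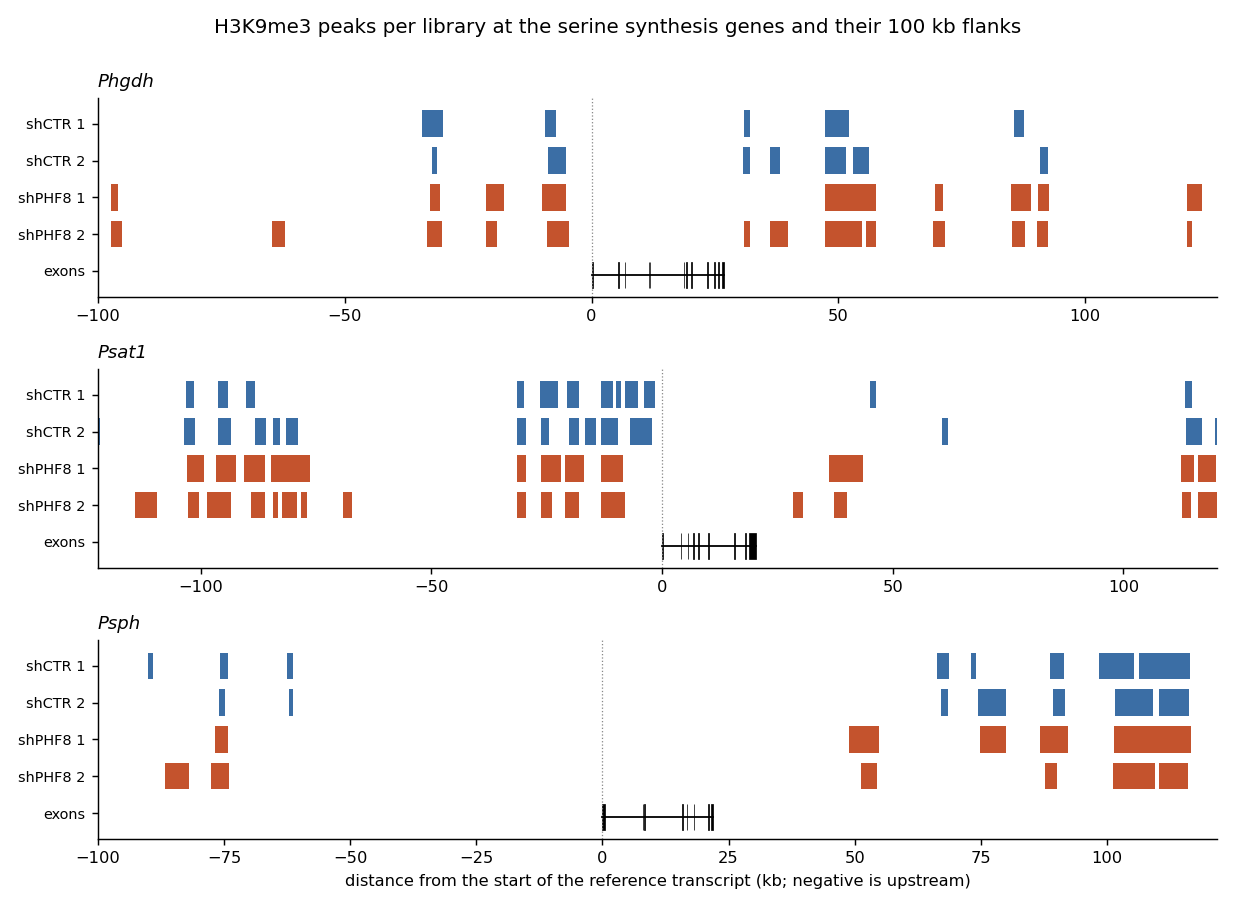
Peaks of each library around *Phgdh*, *Psat1* and *Psph*, as distance in kb from the start of the reference transcript with upstream to the left; blue bars are shCTR peaks, red bars shPHF8 peaks, and black marks exons. No bar crosses an exon of the 3 reference transcripts, and the group of *Psat1* bars upstream of the start includes those counted in its annotated gene body.

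The serine hydroxymethyltransferases split serine to glycine, SHMT1 in the cytosol and SHMT2 in mitochondria. *Shmt1* (chr11:60788104-60811718, minus strand) had no peak in its gene body. A short region in its promoter window, chr11:60812601-60814400, was called in all 4 libraries with 1400, 1600, 1200 and 1400 covered bases, and 86.1% of it was soft-masked repeat sequence, beside a median of 27.6% over all 71107 merged regions. The conditions overlapped there. The next region upstream, chr11:60816401-60821200, was gained, with 0 and 0 covered bases with shCTR and 4800 and 3000 with shPHF8, and its near edge lay 4683 bp upstream of the gene. Flank coverage was 5000 and 2200 bases with shCTR and 8600 and 6600 with shPHF8, the lowest flank coverage among the 10 genes in both shCTR libraries (ratio 2.11, exact permutation p = 0.333).

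*Shmt2* (chr10:127517123-127522444, minus strand) was the only member with more covered bases in its gene body in both shPHF8 libraries. The values were 1600 and 2000 with shCTR and 3200 and 3000 with shPHF8, with means of 1800 ± 283 and 3100 ± 141 bases (SD, n = 2; ratio 1.72, exact permutation p = 0.333). The peak at chr10:127517801-127521200 was called in every library and reached farther toward the 3′ end in the shPHF8 libraries. Exons 3 to 7 and the introns between them were fully covered in all 4 libraries, and exons 8, 9 and 10 were covered over 100% of their length in both shPHF8 libraries and 0% in both shCTR libraries. Only shPHF8 replicate 1 extended into exons 11 and 12. This region was GC-rich (59.3%, median over all regions 44.7%) and 4.71% soft-masked. Upstream, the region chr10:127523801-127535200 over *Nxph4*, a neurexophilin gene, began 1357 bp from the *Shmt2* start and held 10000, 10400, 10200 and 8000 covered bases. Together these peaks put 2801, 2201, 3201 and 1757 covered bases in the *Shmt2* promoter window, where the conditions overlapped (exact permutation p = 1.00), and flank coverage was 12200, 13600, 16200 and 15200 bases.

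**Figure D2:**
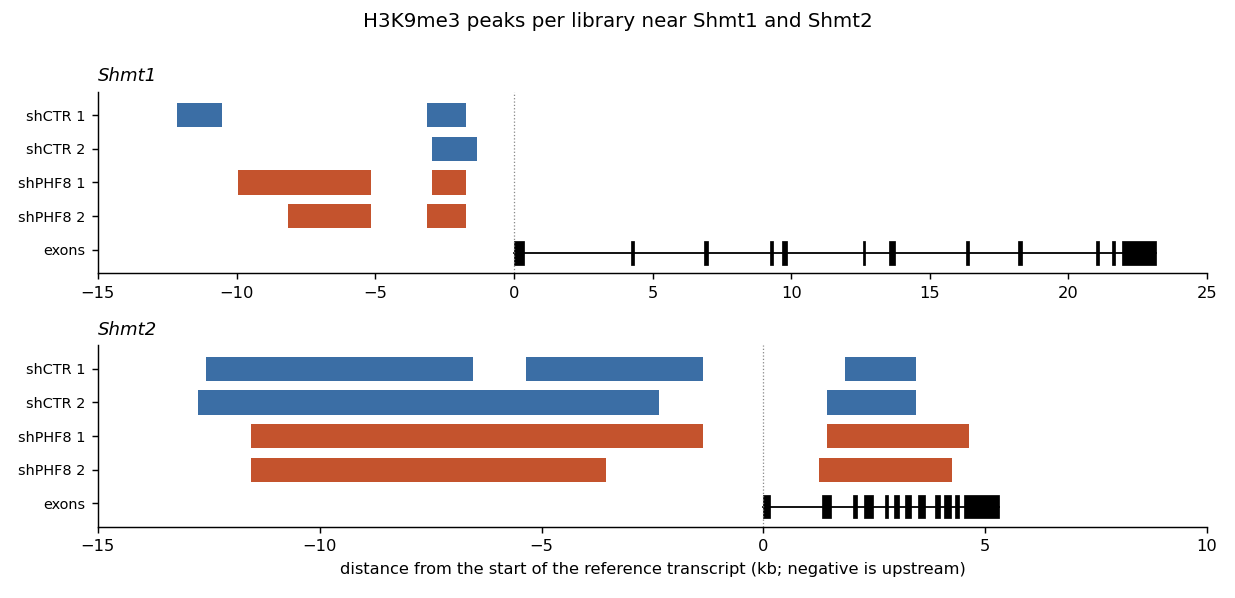
Peaks of each library near *Shmt1* and *Shmt2*, as distance in kb from the start of the reference transcript (negative is upstream); blue bars are shCTR peaks, red bars shPHF8 peaks and black boxes exons. At *Shmt1* the bar whose near edge lies 4683 bp upstream of the gene is present in both shPHF8 libraries alone, and at *Shmt2* the peak inside the gene is longer in both shPHF8 libraries.

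In the cytosol, the enzyme encoded by *Mthfd1* (chr12:76255298-76319803, plus strand) joins formate to tetrahydrofolate and interconverts the folate-bound carbon units. Its gene body held 3800 and 1600 covered bases with shCTR and 0 and 0 with shPHF8. The lost region chr12:76289001-76290800, with 1600 covered bases in each shCTR library, ran from the end of exon 9 to intron 11 and covered exons 10 and 11 over 100% of their length in both. A second region, chr12:76277601-76279800 across exon 3, was called in shCTR replicate 1 alone with 2200 bases. No peak was called within 100 kb upstream of the gene in any library, and total flank coverage of 15403, 14000, 16200 and 14003 bases overlapped between conditions (exact permutation p = 0.667).

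In the mitochondrial arm, *Mthfd2* (chr6:83305691-83325908, minus strand), the mitochondrial dehydrogenase and cyclohydrolase that is high in embryonic and proliferating cells, had no peak in its promoter window or gene body in any library. Its flanks held 10600, 16200, 23000 and 18400 covered bases, above shCTR in both shPHF8 libraries (ratio 1.54, exact permutation p = 0.333), without a gained or lost region among 8. The shared peaks lay over *Slc4a5* downstream and *Tet3* upstream, the latter encoding a dioxygenase of methylated cytosine.

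*Mthfd1l* (chr10:3973118-4167081, plus strand), which encodes the mitochondrial formyltetrahydrofolate synthetase that releases formate, held more covered bases in its body than any other member. It is also the longest member, at 193964 bp. As a share of body length, 35.1%, 40.2%, 37.2% and 29.4% were covered, beside 30.1%, 37.6%, 60.1% and 56.4% at *Shmt2*. Covered bases were 68000 and 78000 with shCTR and 72200 and 57000 with shPHF8, and the conditions overlapped (means 73000 ± 7071 and 64600 ± 10748, SD, n = 2; exact permutation p = 0.667). Of its 13 merged regions, 7 were present in all 4 libraries. The 3′ portion carried most of the mark: chr10:4088201-4105000, from intron 21 to intron 25, held 15800, 15400, 15400 and 15600 covered bases, and intron 26 held 25608, 21408, 25608 and 22008. Exons 23, 24, 25 and 27 were fully covered in every library. The 4 values at exons 23 to 25 lay close together, and the conditions were not separated in intron 26 either.

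In the 5′ portion of the gene, the region chr10:3974601-3983800, spanning introns 1 to 4, held 7200 and 8000 covered bases with shCTR and 2800 and 2400 with shPHF8. Within this region, intron 1 held 3033 and 3200 covered bases with shCTR and 0 and 0 with shPHF8. Intron 4 held 2396 and 3396 with shCTR and 1596 and 1196 with shPHF8. The promoter window held 518 and 1518 bases with shCTR and 0 and 0 with shPHF8, and the peak nearest to the reference start was 2470 and 1470 bp away in shCTR and 6070 bp away in both shPHF8 libraries. The region chr10:4034801-4037400 was lost, with 2600 and 1600 covered bases in shCTR replicates 1 and 2, and it covered exon 16 over 100% of its length together with parts of introns 15 and 16. In the flanks, chr10:4172401-4173800 (1000 and 1400 in shCTR) and chr10:4243001-4245000 (1600 and 1800) were lost as well, both downstream and outside any annotated gene.

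*Mthfd2l*, the *Mthfd2* paralogue (chr5:90931117-91021368, plus strand), had sparse peaks. The gene body held 1200, 2200, 6200 and 0 covered bases, so the 2 shPHF8 libraries stood on opposite sides of the controls. The bases in shCTR lay in a lost region of intron 1, chr5:90939401-90942000, and the 6200 bases of shPHF8 replicate 1 in a separate peak of intron 6 that no other library had. No exon of the *Mthfd2l* reference transcript carried a peak. Flank coverage was 10600, 7800, 4200 and 9400 bases, and 1 flank region, chr5:91116001-91120600, was lost (3000 and 3400 in shCTR).

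*Gldc* (chr19:30098447-30175429, minus strand) encodes the decarboxylase of the glycine cleavage system, which passes the carbon of glycine to tetrahydrofolate. Its gene body held 13754 and 12354 covered bases with shCTR and 10354 and 7554 with shPHF8. Both shPHF8 libraries lay below both controls, with means of 13054 ± 989.9 and 8954 ± 1979.9 bases (SD, n = 2; ratio 0.686, exact permutation p = 0.333). Of the 10353 genes with a peak in the body, 3.59% had a difference as low. That rank is in bases and depends on starting coverage, since the median over those genes was 2800 and 2871 bases in shCTR replicates 1 and 2. Regions present in all 4 libraries lay at the 3′ end, chr19:30097601-30103800, where exons 23, 24 and 25 were fully covered, and in intron 2, chr19:30160201-30165800 (4200, 4600, 5000 and 4600 covered bases). The lost regions lay between them. One, chr19:30111801-30114600, held 2800 covered bases in each shCTR library and covered exon 20 over 100% of its length. The other, chr19:30126401-30128200 in intron 15, held 1800 and 1000. The peak in the promoter window was shared, with 1429, 1229, 1629 and 1429 covered bases, and a gained region, chr19:30182801-30186800, lay 7372 bp upstream of the start with 4000 and 2600 bases in the shPHF8 libraries.

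Fully covered exons inside a lost region were found in 3 genes, and 1 such exon of each is printed from the reference assembly, because these are the coding sequences over which a peak was called in both shCTR libraries and in neither shPHF8 library. Each is given 5′ to 3′ on the strand of its gene, with the exon in capitals and 60 bases of intron to either side in lower case. The stretches are *Mthfd1* exon 10 at chr12:76289371-76289588 (plus strand, exon of 98 bp), *Mthfd1l* exon 16 at chr10:4035156-4035378 (plus strand, 103 bp) and *Gldc* exon 20 at chr19:30113662-30113923 (minus strand, 142 bp).
Mthfd1 exon 10: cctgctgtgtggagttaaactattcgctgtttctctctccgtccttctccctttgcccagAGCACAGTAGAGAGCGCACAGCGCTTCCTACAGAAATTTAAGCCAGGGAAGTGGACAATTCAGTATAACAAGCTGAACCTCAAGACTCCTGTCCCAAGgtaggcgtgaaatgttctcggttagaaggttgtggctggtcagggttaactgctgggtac
Mthfd1l exon 16: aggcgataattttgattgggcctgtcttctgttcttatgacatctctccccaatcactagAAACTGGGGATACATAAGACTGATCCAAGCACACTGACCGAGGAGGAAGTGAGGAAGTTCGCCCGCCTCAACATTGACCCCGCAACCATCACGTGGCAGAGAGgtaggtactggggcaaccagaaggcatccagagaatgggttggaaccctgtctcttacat
Gldc exon 20: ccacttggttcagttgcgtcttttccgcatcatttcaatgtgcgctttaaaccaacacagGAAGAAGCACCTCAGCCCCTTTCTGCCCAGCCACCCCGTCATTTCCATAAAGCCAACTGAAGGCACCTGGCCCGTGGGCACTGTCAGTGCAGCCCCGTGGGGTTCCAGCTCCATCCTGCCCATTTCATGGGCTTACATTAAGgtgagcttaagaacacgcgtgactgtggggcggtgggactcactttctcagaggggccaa
Their GC contents with the intron edges were 50.0%, 50.7% and 55.3%. The whole lost regions that hold these exons had 47.8%, 48.1% and 47.3%, against a median of 45.0% over lost regions that overlap a protein-coding gene.

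**Figure D3:**
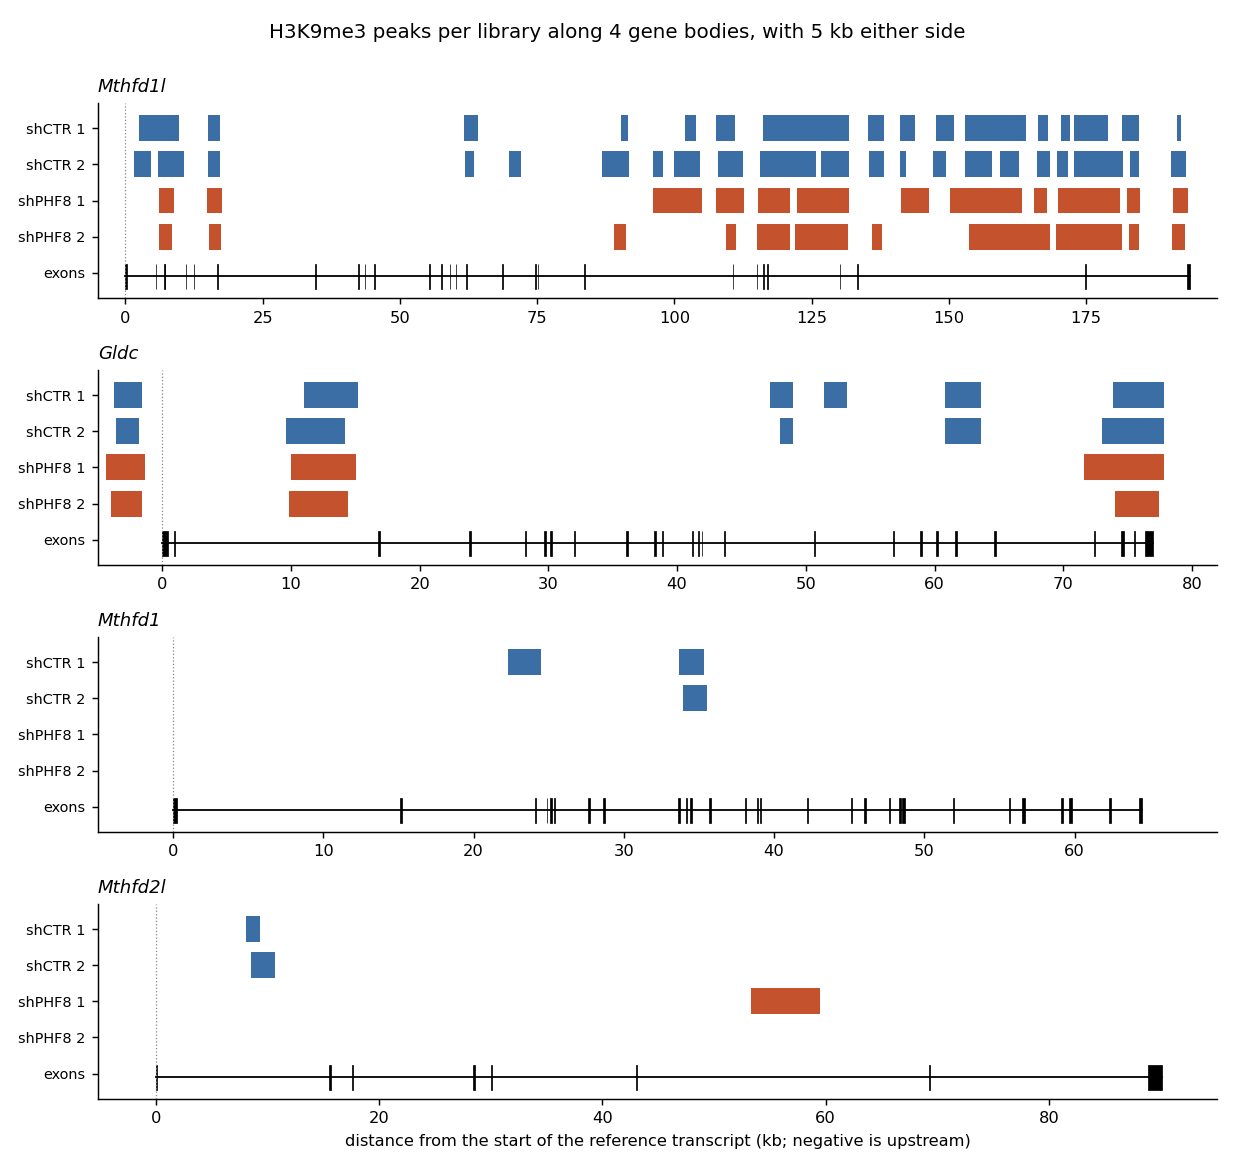
Peaks of each library along *Mthfd1l*, *Gldc*, *Mthfd1* and *Mthfd2l*, as distance in kb from the start of the reference transcript; blue bars are shCTR peaks, red bars shPHF8 peaks and black boxes exons. The 5 lost regions have bars in both blue rows and in neither red row: 1 in *Mthfd1l*, 2 in *Gldc*, 1 in *Mthfd1* and 1 in *Mthfd2l*. In *Mthfd1l* intron 1, blue bars also stand without red ones, but they belong to a region with peaks in all 4 libraries, which is not called lost.

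Across the 10 genes, a peak was called in the body of 6 in at least 1 library and of 4 in all 4 libraries. Over all protein-coding genes, 47.2% had a peak in the body in at least 1 library and 29.4% in all 4. Of the 6, 1 (*Shmt2*) had more covered bases in both shPHF8 libraries than in both controls, beside 27.6% of 10353 genes, and 3 (*Psat1*, *Mthfd1* and *Gldc*) had fewer, beside 12.9%. The median difference, shPHF8 minus shCTR, was -3166 bases over the 6 members and 400 bases over the 10353 genes, which were not matched for gene length or starting coverage. Summed over the 10 bodies, covered bases were 99754 and 109354 with shCTR and 101091 and 75754 with shPHF8, so the sums overlapped (ratio 0.846, exact permutation p = 0.667), while the ratio over all protein-coding gene bodies was 1.20. *Mthfd1l* alone supplied 68000 and 78000 of these bases with shCTR and 72200 and 57000 with shPHF8. The number of separate peaks in the 10 bodies was 30 and 32 with shCTR and 19 and 16 with shPHF8. Of these peaks, *Mthfd1l* held 16 and 21 with shCTR and 12 and 11 with shPHF8. Over all protein-coding genes the lists held 24311, 25018, 19581 and 23781 peaks in the same order.

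Promoter windows held a peak in 5 of 10 genes in at least 1 library, beside 28.0% of all protein-coding genes. For 0 of these 5 were both shPHF8 libraries higher, beside 14.5% of 6144 protein-coding genes with a peak there, and for 1 (*Mthfd1l*) both were lower, beside 14.6%. With windows centred on reference starts, *Psat1* joined *Mthfd1l* and 2 of 5 were lower and 0 higher, beside 14.3% and 14.4% of 6101 genes. The sums over the 10 promoter windows were 10149, 8149, 11031 and 7587 bases, which overlapped (exact permutation p = 1.00).

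In the flanks, both shPHF8 libraries exceeded both controls at 6 of 10 genes (*Phgdh*, *Psat1*, *Psph*, *Shmt1*, *Shmt2* and *Mthfd2*) and fell short of both at 0, beside 47.6% and 7.10% of 20305 protein-coding genes. Summed flank coverage was 154186 and 155389 bases with shCTR and 226792 and 213055 with shPHF8 (means 154788 ± 851 and 219924 ± 9714, SD, n = 2; ratio 1.42, exact permutation p = 0.333), and the ratio over the flanks of all protein-coding genes was 1.30. Of the summed difference of 65136 bases, *Phgdh* supplied 19400 and *Psat1* 21794.5. Taken singly, *Phgdh*, *Psat1*, *Shmt1* and *Mthfd2* had flank ratios above 1.30. The ratio was below 1.30 at *Psph*, *Shmt2*, *Mthfd1*, *Mthfd1l*, *Mthfd2l* and *Gldc*. Upstream, 5 of 9 genes with a peak were higher and 0 lower (39.3% and 8.33% of 18734 genes), and downstream 2 of 10 were higher and 2 lower (39.1% and 8.70% of 18721 genes). The median difference was 4350 bases over the 10 members and 3300 bases over all genes with a flank peak. When each library was scaled to the same total covered length, 3 genes were higher in shPHF8 (*Phgdh*, *Psat1* and *Shmt1*) and 4 lower (*Shmt2*, *Mthfd1*, *Mthfd1l* and *Mthfd2l*), beside 21.3% and 25.4% of all genes. *Phgdh* then held 17054, 19733, 27746 and 34768 scaled bases and *Psat1* 16980, 23932, 34151 and 35440.

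**Figure D4:**
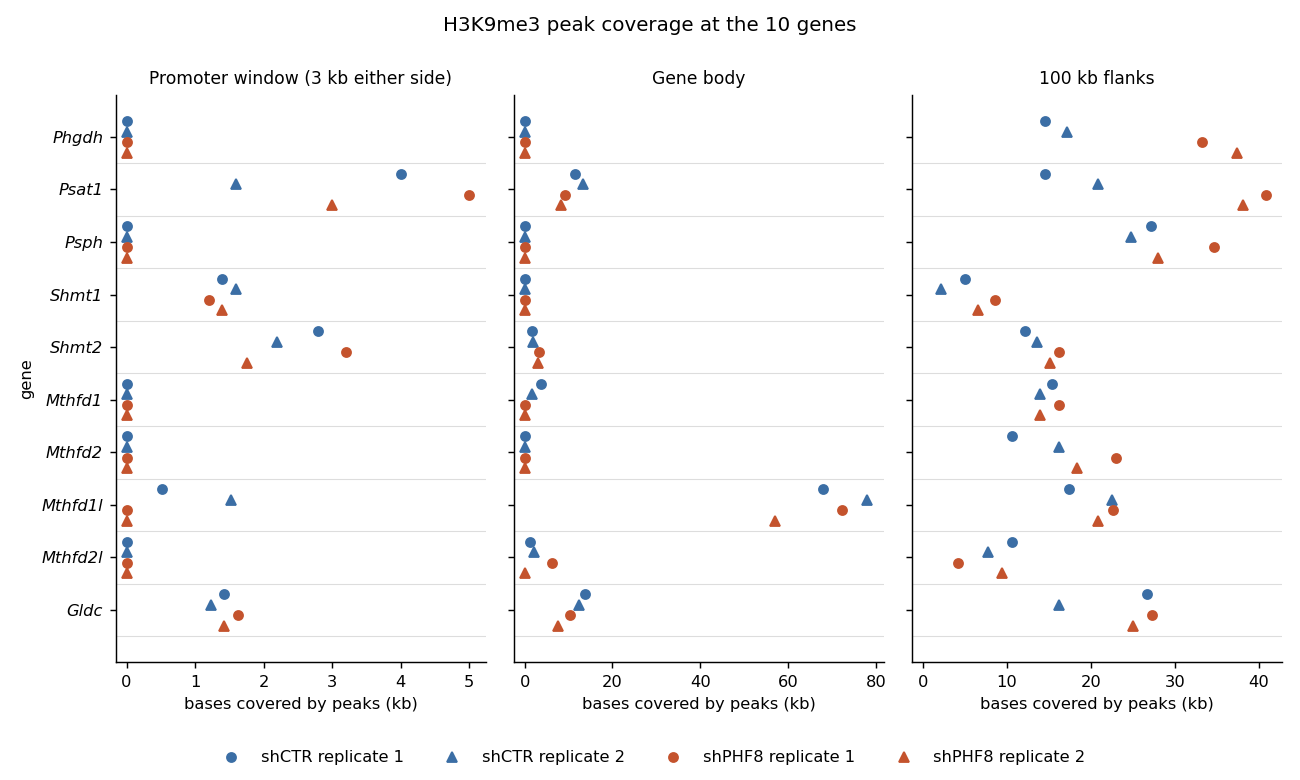
Bases covered by peaks, in kb, for each of the 10 genes in the promoter window, gene body and flanks; each point is 1 library, blue for shCTR, red for shPHF8, circles for replicate 1 and triangles for replicate 2. In the flanks the red points lie right of the blue points at 6 genes, and in the bodies they lie left of them at *Psat1*, *Mthfd1* and *Gldc*.

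Counted as regions, the members carried 109, of which 45 were present in all 4 libraries. In gene bodies, 0 of 27 regions were gained and 5 (18.5%) were lost, beside 3.64% gained and 6.43% lost among the 31896 regions that overlap any protein-coding gene. In flanks, 8 of 82 regions (9.76%) were gained and 5 (6.10%) were lost, beside 4.28% and 5.03% of all merged regions. The 8 gained flank regions were 4 at *Phgdh* and 1 each at *Psat1*, *Psph*, *Shmt1* and *Gldc*. The 5 lost flank regions were 2 at *Psph*, 2 at *Mthfd1l* and 1 at *Mthfd2l*. A further 11 flank regions were called in shPHF8 replicate 2 alone and 8 in shCTR replicate 1 alone, and 23 of the 82 were called in 1 library only. For these counts and for the 45 regions present in all 4 libraries, the matching shares over all merged regions are not given here. Soft-masked bases made up a median of 33.6% of the 82 flank regions, 46.5% of the 8 gained and 39.8% of the 5 lost ones, against 27.6% of all merged regions, 28.1% of the gained and 23.6% of the lost regions of the genome.

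**Figure D5:**
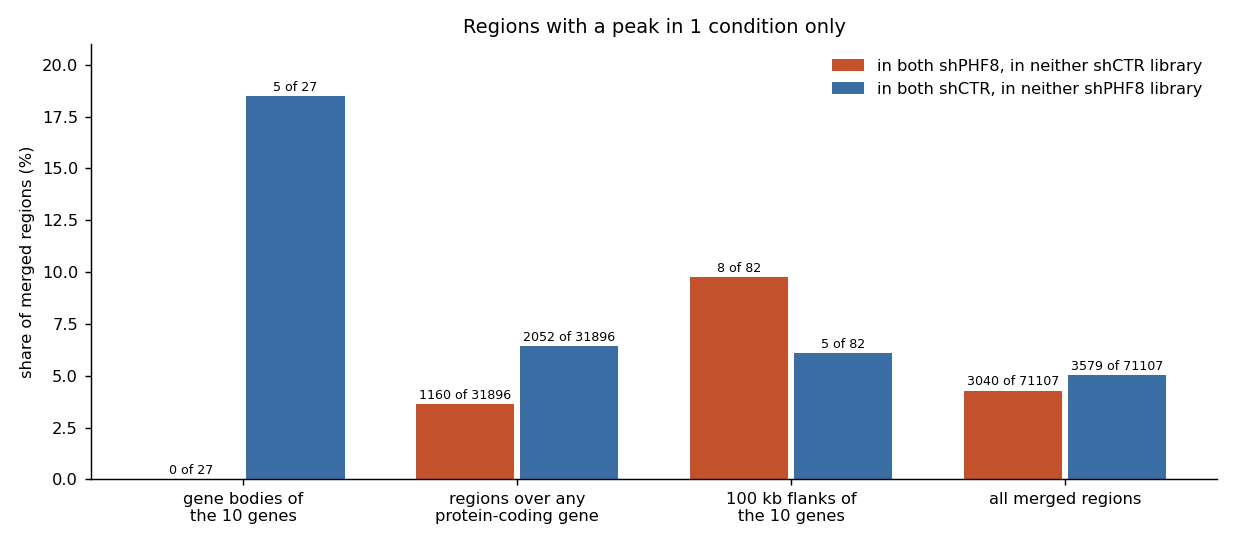
Share of merged regions, in percent, called in both shPHF8 libraries and in neither shCTR library (red) or the reverse (blue), for the gene bodies and flanks of the 10 genes and for regions of the whole genome; the numbers above the bars are counts. In gene bodies of the 10 genes 0 of 27 regions are red and 5 of 27 blue, and in flanks 8 of 82 are red and 5 of 82 blue.

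The share of exonic and of intronic bases under peaks differed from gene to gene. Exons of *Phgdh*, *Psat1*, *Psph*, *Shmt1*, *Mthfd2* and *Mthfd2l* reference transcripts were not covered in any library. At *Gldc*, exons were covered over 28.1%, 28.1%, 26.9% and 24.4% of their bases and introns over 17.3%, 15.4%, 12.8% and 9.06%. The order was the other way at *Mthfd1l*, where exons had 29.2%, 26.9%, 32.7% and 25.2% and introns 35.2%, 40.5%, 37.3% and 29.5%. At *Shmt2*, the exonic share was 27.3% and 31.0% with shCTR and 59.2% and 54.4% with shPHF8, the highest among the 10 genes in every library except shCTR replicate 1, where *Mthfd1l* and *Gldc* were higher.

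A list of 40 other genes of serine and glycine use, the folate cycle, purine synthesis and the methionine cycle was examined in the same way. In their bodies, 15 of the 40 had a peak, beside 47.2% of all protein-coding genes. Of the 15, 3 had more covered bases in both shPHF8 libraries, 3 had fewer and 9 overlapped, beside 27.6% higher and 12.9% lower over all genes with a peak there. In their promoter windows, 11 of the 40 had a peak, beside 28.0% of all protein-coding genes. Of the 11, 3 were higher and 3 lower, beside 14.5% and 14.6%. The lower ones include *Dmgdh* (2000, 3233, 0 and 1033 covered bases) and the gene adjoining it, whose windows share the same peaks. In their flanks, 25 of 40 were higher in shPHF8, 4 lower and 11 overlapping, beside 47.6% and 7.10%. Some of the 40 genes lie within 100 kb of each other, so the same peaks enter the flank count more than once. Gained regions were found at the adjacent serine dehydratase genes *Sds* and *Sdsl*, which share chr5:120475601-120484400 (0 and 0 covered bases in shCTR, 4000 and 8800 in shPHF8). The *Sdsl* promoter window held 591, 0, 591 and 3201 covered bases, and the conditions overlapped. Another lay upstream of *Dld*, the dihydrolipoamide dehydrogenase that works with GLDC. There, chr12:31352601-31358200 held 0 and 0 covered bases with shCTR and 3400 and 5600 with shPHF8. It reached the *Dld* promoter window in shPHF8 replicate 2 alone (1853 bases), so the conditions overlapped in that window. *Sds* had no peak in its body in either shCTR library. The region chr6:90495801-90499000 was lost in *Aldh1l1*, the cytosolic formyltetrahydrofolate dehydrogenase (2600 and 2200 in shCTR, 0 and 0 in shPHF8).

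Peaks were called in the body in all 4 libraries at 8 of these 40 genes, beside 29.4% of all protein-coding genes. Among the 8 were *Sdsl*, *Dmgdh*, *Cbs*, *Mthfs*, *Aldh1l1*, *Sfxn1* and *Atic*. *Aldh1l1* was the most covered, with 43600 and 39600 bases with shCTR and 34000 and 39000 with shPHF8, and with *Atic* (10000, 6800, 5000 and 5200), a bifunctional enzyme of purine synthesis, it was lower in both shPHF8 libraries. *Sdsl* (5000, 4800, 6200 and 10010) and *Dmgdh* (7768, 8568, 11400 and 10568), a mitochondrial dehydrogenase of choline breakdown, were higher in both. At *Cbs*, *Mthfs* and *Sfxn1*, the last encoding a mitochondrial serine transporter, the conditions overlapped.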

How the data were processed

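H3K9me3 ChIP-seq peaks of shCTR and shPHF8 NSCs (2 ChIP libraries each, with 1 input per condition not used here) were analysed as deposited. The authors called broad peaks with SICER2 and deposited 1 list of other-unit values per library, namely the chromosome, start and end of each peak, with no count or score. The methods name SOAPaligner/SOAP2 on mm10, whereas the submitters' processing notes list Bowtie2 2.3.5.1, SAMtools 1.9 and deepTools, and the window, gap, threshold and use of the input are not given in the sources used here. PHF8 itself was not measured in these files.

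Of each list, 2 peaks outside chromosomes 1 to 19, X and Y were dropped. Starts were read as 0-based and ends as inclusive, and positions are printed 1-based. Genes came from GENCODE M21 and promoter sequences from RefSeq (GRCm38.p6). Merging, coverage and calls (Python 3.11.15, numpy 2.4.6, pysam 0.24.0) were tested on simulated peaks: coverage equalled that of bedtools 2.31.1 in 1000 of 1000 windows, and 400 of 400 planted regions were recovered with 0 false calls. The planted regions met or failed the call rule by design, so their recovery checks the code and is not an error rate for real peaks. Covered bases were compared by an exact two-sided permutation test over libraries. All 10 genes are named. Of the 40 other pathway genes, those with a peak in the body in all 4 libraries or with a gained or lost region are named, except for 1 that is not reported here. The genes, lists and windows were chosen with earlier results of these data known. The alternatives were other window widths, peaks of at least 2 kb, scaling to equal covered length, equal numbers of the widest peaks, other region rules, each library left out and the replicate number as a block. Same-numbered libraries did not deviate together: the correlation of their deviations from the condition means was -0.108 over 10353 gene bodies and -0.0652 over 20305 flanks.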

Additional observations from a re-analysis of the deposited data

How the results depend on the processing

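The flank sum (65136 bases) kept its direction under every alternative run, and the gene-body sum (-16131.5 bases) too, but scaling to the same total covered length took them to 14614.3 and -43534.4 bases (exact permutation p = 0.333 for each). They moved to 32708.5 and 116092 with flanks of 50 and 200 kb, and to -7331.5 in bodies with peaks of at least 2 kb. With each library left out in turn, shPHF8 minus shCTR was between 58267.5 and 72004.5 bases in the flanks and between -28800 and -3463 bases in the bodies. The promoter sum, 160 bases, had no stable direction. It was -2466 bases after scaling to the same total covered length, -2212 at reference starts (an alternative chosen after seeing the data), and between -1562 and 1882 with 1 library left out, negative without shCTR replicate 2 (-840) or shPHF8 replicate 1 (-1562).

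For genes whose conditions did not overlap, scaling gave 3 higher and 4 lower in flanks and 3 lower in promoter windows. In promoter windows there were 0 lower at 1 kb, 1 higher at 5 kb, 2 lower at reference starts, and 0 lower when a gap of at least 1000 bases was required. With peaks of at least 2 kb, 1 gene body was lower. With the replicate number as a block, 2 genes were higher and 2 lower in promoter windows, the other blocked counts stayed within 1.5 times of the unblocked ones, and the smallest p a block of 2 pairs allows is 0.5. The labels do not say whether same-numbered libraries belong together. A crossed replicate block, added after seeing the data, gave 1 lower in flanks. Leaving out 1 library gave 6 to 9 genes higher and 0 to 1 lower in flanks, 1 to 2 higher and 3 to 5 lower in bodies, and 0 to 3 higher and 1 to 2 lower in promoter windows.

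Of regions at gene bodies and promoter windows, 2 were lost with peaks of at least 2 kb, and 8 to 10 were lost and 0 to 1 gained with 1 library left out, where the remaining library of that condition decides alone. In flanks, 5 were gained with peaks within 5 kb merged and 9 to 20 with 1 library left out (15 without shCTR replicate 2, 20 without shPHF8 replicate 1). Lost flank regions numbered 2 with equal numbers of the widest peaks, 0 with peaks of at least 2 kb, 2 with merging, and 5 to 14 with 1 library left out (14 without shCTR replicate 2).

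Single genes turned direction as follows. Scaling gave flank differences of -1854 at *Gldc*, -3748 at *Mthfd1*, -3874 at *Mthfd1l*, -2639 at *Psph* and -1092 at *Shmt2*, and -194.7 in the *Gldc* promoter window. Peaks of at least 2 kb gave -1300 in the *Mthfd1* flanks and 556.5 in the *Shmt2* promoter window. Promoter windows of 5 kb gave 118 at *Shmt1* and 700 at *Shmt2*, and the reference start gave -1159 at *Psat1*. With 1 library left out, flank differences ranged from -500 to 9900 at *Gldc*, -698.5 to 1498.5 at *Mthfd1*, -700 to 4383 at *Mthfd1l* and -5000 to 200 at *Mthfd2l*, the *Mthfd2l* body from -1700 (without shPHF8 replicate 1) to 4500, and the *Shmt2* promoter window from -744 to 700. For all of these shifts, the cause was not tested. The lists give neither depth nor signal over input, so a peak near the calling threshold cannot be told from an absent one, and 2 libraries per condition cannot reach the 0.05 threshold.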
